A study of Mus musculus with 6 samples.

Results

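The 10 genes described here are the transcription factor Nrf2 (gene symbol Nfe2l2), its repressor Keap1 and 8 antioxidant genes that Nrf2 is known to activate (Nqo1, Gclc, Gclm, Hmox1, Txnrd1, Srxn1, Gsr and G6pdx). They were taken by symbol from a table of 55450 genes, each symbol matched 1 row, and all 10 were abundant enough to be tested. The table holds liver RNA of 6 mice, with 1 library per mouse and 3 mice per group. Knockout (KO) mice were LKB1 fl/fl animals, in which the gene for the kinase LKB1 (Stk11) is flanked by loxP sites, and they received AAV8 Cre, a virus of a liver-directed serotype that carries the recombinase Cre. The comparison group was wild type (WT) and received the same virus, so any effect of the virus or of Cre alone is shared by both groups. Strain was given as C57BL/J for all 6 mice, the virus was injected at 6 weeks of age, and the left liver lobe was collected 4 weeks later, at 10 weeks of age. The promoter that drives Cre is not given in the sources used here, and cells that the virus does not reach keep Stk11.

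Nrf2 is a basic leucine zipper factor that is held in the cytoplasm and marked for degradation by Keap1, an adaptor of a ubiquitin ligase that carries reactive cysteines. When electrophiles or oxidants modify Keap1, Nrf2 accumulates, pairs with small Maf proteins and binds antioxidant response elements near its target genes. In liver these targets make and recycle glutathione and reduced thioredoxin, supply NADPH, degrade heme and conjugate foreign compounds.

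The core of the antioxidant response element, TGACNNNGC, was searched on both strands of windows of 300 bases from RefSeq (build GRCm38.p6), which run from 250 bases before to 50 bases after a transcription start. Windows existed for 7 of the 10 genes, and 5 of these 7 held at least 1 match, against 14.0% of the 27025 genes searched (12.4% of 32851 windows). Nqo1 and Keap1 had no match in their windows, and Gclc, Hmox1 and Gsr had no window. The first letters of the core, TGAC, also begin AP-1 and CREB motifs, which were not searched. The matches are printed along the strand of each gene, with the 9 bases of the match in capitals, to show where the letters of this core occur. Only that of Nfe2l2 reads forward, and the other 4 are reverse complements.
Nfe2l2, chr2:75704885-75704913, minus strand: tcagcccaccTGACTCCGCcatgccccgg
Srxn1, chr2:152105542-152105570, plus strand: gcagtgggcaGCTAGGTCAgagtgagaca
Gclm, chr3:122245398-122245456, plus strand: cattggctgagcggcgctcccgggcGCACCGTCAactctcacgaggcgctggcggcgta
Txnrd1, chr10:82859089-82859147, plus strand: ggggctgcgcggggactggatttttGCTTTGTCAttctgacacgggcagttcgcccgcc
G6pdx, chrX:74428919-74428947, minus strand: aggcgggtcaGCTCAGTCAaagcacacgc
The match lies 240 bases before the start in Nfe2l2, 134 before it in Gclm, 57 before it in G6pdx and 29 after it in Srxn1. In Txnrd1 it lies 92 before the start, and the window belongs to the second of 3 annotated starts. These distances are to the RefSeq start of each window. The G6pdx match is upstream only of that start, since it lies inside the gene span given below (74409483 to 74429194, minus strand). The Txnrd1 match also lies inside its gene span. A match says only that these letters occur there, since no binding was measured.

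The libraries held between 47659106 and 56147638 counts. Stk11 was at 22.1, 14.4 and 11.4 CPM (counts relative to the effective library size) in KO 1, 2 and 3 and at 64.2 to 69.7 CPM in WT (log2 fold change -2.06 ± 0.25, SE, edgeR adjusted p = 0.0167), in the direction of the labels. KO 1 and WT 1 stood apart from the other 4 libraries by a feature absent from the labels, with 42472 and 29243 counts of Xist against at most 16, and with 6 and 3 counts over 4 Y-linked genes against 6146 to 8199. Values are therefore also given within the 4 others, called Y-positive below, and within the Xist-positive pair of KO 1 and WT 1, where each group has a single library and nothing can be tested. Hepatocyte markers were present in all libraries, but albumin (Alb) was at 50550, 10394 and 17534 CPM in KO 1, 2 and 3 and at 57064 to 95626 CPM in WT, without overlap. In the 4 Y-positive libraries Alb fell by 2.19 on the log2 scale (edgeR adjusted p = 0.0186), Apoa1 and Ttr also fell, and Tat rose. Of 8 endothelial markers 7 were lower in every KO than in every WT library. The 8 summed to 116 to 189 CPM in KO and 225 to 300 CPM in WT. The share of all tested genes that were lower in every KO library was not counted. Over all 6 libraries 0 of the 8 endothelial markers passed the edgeR threshold on adjusted p that is used below. The summed level of 12 macrophage markers overlapped, at 266 to 433 CPM in KO and 354 to 410 CPM in WT. Without Slc40a1, an iron exporter with the highest level on that list, the other 11 summed to 313, 186 and 141 CPM in KO 1, 2 and 3 and to 203 to 280 CPM in WT, so that KO 2 and KO 3 lay below all WT libraries and KO 1 above them. In tissue RNA, fewer cells of a type and less RNA per cell cannot be told apart. Among hepatocyte zones, 12 pericentral markers summed to 4648 to 7253 CPM in KO and 8496 to 9684 CPM in WT, and 12 periportal markers to 24478 to 47296 CPM and 11655 to 12616 CPM. These sums rest on a few abundant genes. The log2 fold change was negative for 10 and positive for 2 pericentral markers, and positive for 10 and negative for 2 periportal markers. Pericentral Oat was at 3832, 3568 and 4983 CPM in KO and 482 to 538 CPM in WT. Periportal Cyp2f2 was at 614, 152 and 176 CPM in KO and 690 to 1260 CPM in WT. The part of these shifts in the values below was not tested.

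Over the 6 libraries, KO 2 and KO 3 lay above all WT libraries for Srxn1, Nqo1, Hmox1, Txnrd1, Gsr, Nfe2l2 and, by a small margin, Keap1, and KO 1 lay closer to the WT mean than either for the first 6 of these, while for Keap1 it lay below all WT libraries. For Gclc and Gclm no KO library exceeded all WT libraries. With all 6 libraries in the quasi-likelihood model of edgeR, 0 of the 10 genes passed the threshold of 0.05 on adjusted p, where 2.15% of 14539 genes were called as higher and 1.22% as lower in KO (63.9% of the calls higher, or 74.4% when scaled by library size alone). Before adjustment, 5 had a p-value under 0.05 (Nfe2l2, Nqo1, Hmox1, Txnrd1 and Srxn1), against 26.3% of all genes. The median log2 fold change of the 10 genes was 0.76, beside 0.01 for all genes tested.

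**Figure D1:**
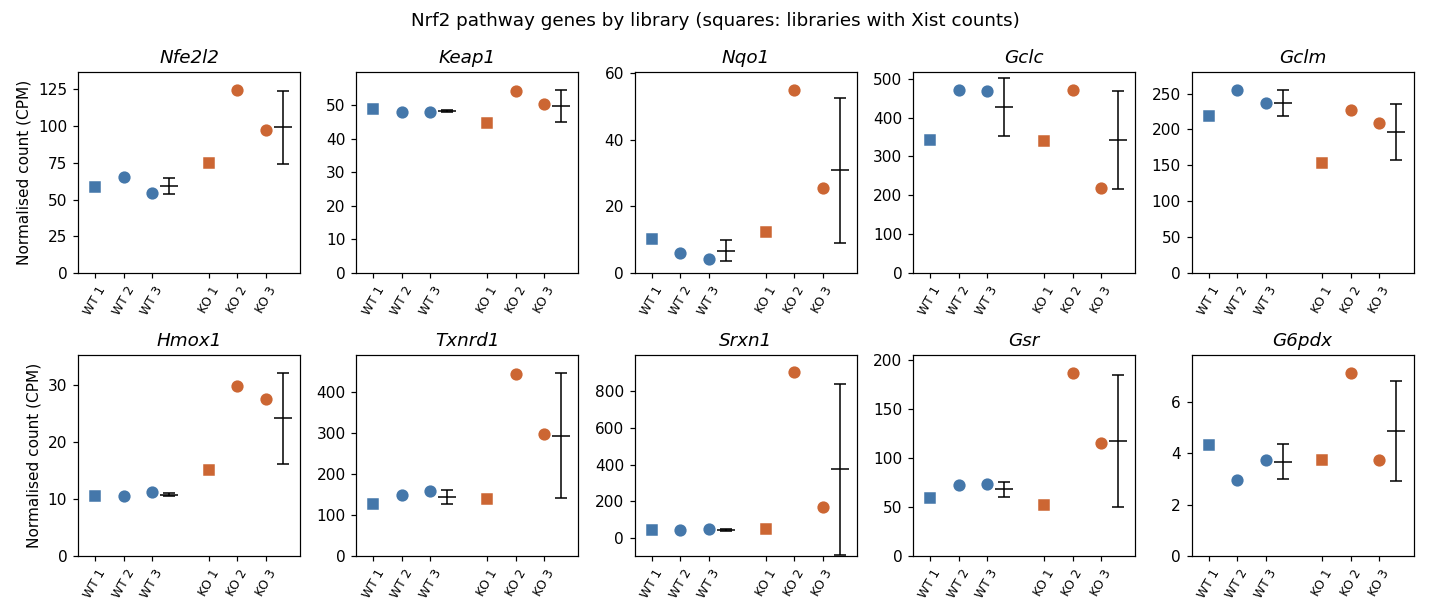
Normalised count (CPM, linear axis) of each of the 10 genes in each library, with WT in blue, KO in orange, squares for the libraries with Xist counts, and a bar for the mean and SD of each group (n = 3). KO 2 is the highest of the 6 libraries for 8 of the 10 genes, and Srxn1 in KO 2 (906 CPM) stands far from all other points of its panel.

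How many of the 10 were called depended on KO 1. Among the 4 Y-positive libraries (2 KO against 2 WT), 6 of the 10 genes rose and 0 fell at an adjusted p-value of 0.05 in edgeR, where 17.2% of 14546 genes were called as higher and 16.1% as lower. The 6 were Nfe2l2, Nqo1, Hmox1, Txnrd1, Srxn1 and Gsr. In the same 4 libraries markers of other cell types were called lower, namely 7 of 8 endothelial, 5 of 8 stellate cell, 4 of 8 lymphocyte, 5 of 5 erythroid and 5 of 12 macrophage markers, while 2 of 5 neutrophil and monocyte markers and 1 macrophage marker were called higher. The part of these shifts in the calls of the 6 genes was not tested. The same 6 genes were called when KO 1 alone was left out, where 16.0% of genes were called as higher. Without KO 2 the number was 0, where 0.484% of all genes were called as higher. DESeq2 on all 6 libraries called 5 of the 10 as higher (Nfe2l2, Nqo1, Hmox1, Txnrd1 and Srxn1), against 8.74% of genes, and limma voom called 0.

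**Figure D2:**
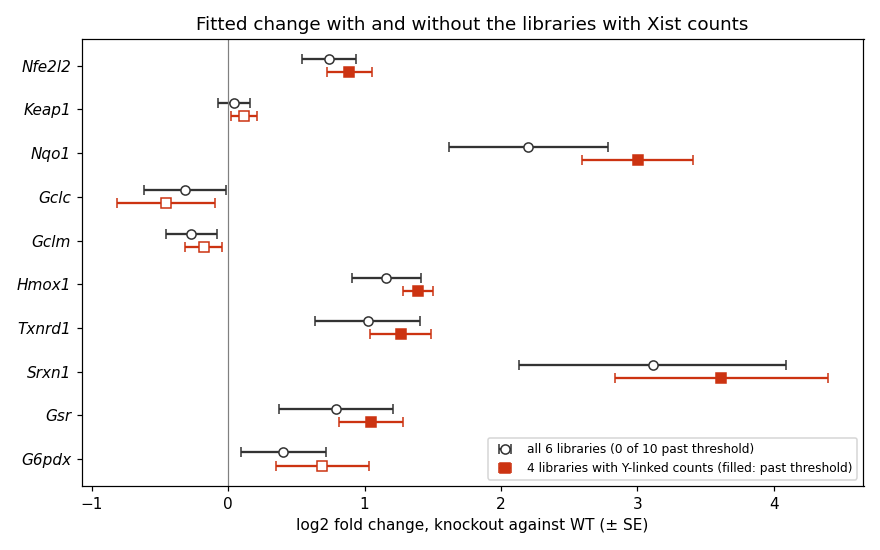
Fitted log2 fold change of KO against WT with its SE for each gene, from all 6 libraries (circles, none past the threshold) and from the 4 Y-positive libraries (squares, filled where the adjusted p-value is under 0.05). The 6 filled squares lie between 0.89 for Nfe2l2 and 3.61 for Srxn1, and Gclc and Gclm lie below 0 in both fits.

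Nfe2l2 itself (chromosome 2, 75675513 to 75704641, minus strand, protein-coding) encodes Nrf2. Its level was 75.1, 124 and 97.6 CPM in KO 1, 2 and 3 and 58.6, 65.1 and 54.5 CPM in WT 1, 2 and 3. Every KO library lay above every WT library, a separation in this direction that 16.9% of all tested genes also had. The fold change was 1.67 (log2 0.74 ± 0.20, SE, edgeR adjusted p = 0.0838). Within the 4 Y-positive libraries the log2 fold change was 0.89 ± 0.17 (adjusted p = 0.0134), and the log2 ratio in the Xist-positive pair was 0.36.

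Keap1 (chromosome 9, 21229730 to 21239361, minus strand), the repressor, had the smallest SE of the 10. It had 44.8, 54.1 and 50.5 CPM in KO and 48.8, 48.1 and 48.1 CPM in WT. The groups overlapped, and the fitted log2 fold change was 0.04 ± 0.12 (SE, adjusted p = 0.84 in edgeR). Its sign turned when KO 2 was left out, to -0.0145, so no direction can be read from it.

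Among the targets, Srxn1 (chromosome 2, 152105516 to 152111376, plus strand) had the largest fitted difference and the largest spread. It encodes sulfiredoxin, which restores peroxiredoxins that have been over-oxidised by peroxide. The level was 47.3, 906 and 168 CPM in KO 1, 2 and 3 and 42.5, 40.7 and 46.6 CPM in WT. KO 1 exceeded the highest WT library by less than 1 CPM, while KO 2 and KO 3 stood far above it. The log2 fold change over 6 libraries was 3.11 ± 0.98 (SE, edgeR adjusted p = 0.111), and it was 1.32 ± 0.48 without KO 2 (adjusted p = 0.224). In the 4 Y-positive libraries it was 3.61 ± 0.78 (adjusted p = 0.0205), and the log2 ratio in the Xist-positive pair was 0.16.

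Nqo1 (chromosome 8, 107388225 to 107403206, minus strand) encodes a quinone reductase that is a standard readout of Nrf2 activity. Its level was 12.3, 55.0 and 25.4 CPM in KO and 10.2, 5.88 and 4.11 CPM in WT. The groups did not overlap, but KO 1 lay close to WT 1, with a log2 ratio of 0.27 between them. In edgeR the log2 fold change was 2.20 ± 0.58 (SE, adjusted p = 0.0789), and within the 4 Y-positive libraries 3.00 ± 0.41 (adjusted p = 0.00539). Without KO 2 it was 1.49 ± 0.46 (adjusted p = 0.18).

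Hmox1 (chromosome 8, 75093621 to 75100589, plus strand), the inducible heme oxygenase, came nearest to the threshold. It had 15.1, 29.8 and 27.6 CPM in KO and 10.6, 10.6 and 11.2 CPM in WT, so the WT libraries agreed closely and KO 1 also lay above them. The fold change was 2.23 (log2 1.16 ± 0.25, SE, edgeR adjusted p = 0.0566). The adjusted p-value was 0.0373 without the filter on low counts and 0.0349 with the Xist state as a term. Hmox1 is also expressed by macrophages, for which 4 of 12 markers had a positive and 8 a negative log2 fold change and 0 passed the threshold over 6 libraries. In the 4 Y-positive libraries, where Hmox1 rose by 1.39 ± 0.11 (edgeR adjusted p = 0.00112), the macrophage markers Vsig4, Adgre1, C1qa, C1qb and Csf1r fell and Marco rose. Which cells account for the Hmox1 level was not tested, and levels of markers in tissue RNA cannot show it.

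Txnrd1 (chromosome 10, 82833951 to 82897712, plus strand) encodes the cytosolic thioredoxin reductase. Its level was 141, 444 and 298 CPM in KO and 127, 149 and 158 CPM in WT, and KO 1 lay inside the WT range. The log2 fold change was 1.02 ± 0.39 (SE, adjusted p = 0.158) in edgeR over 6 libraries and 1.26 ± 0.22 (adjusted p = 0.0109) over the 4 Y-positive ones.

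Gsr (chromosome 8, 33652523 to 33698163, plus strand), the glutathione reductase, had 51.8, 186 and 115 CPM in KO and 59.0, 72.2 and 73.2 CPM in WT. Here KO 1 was the lowest of all 6 libraries, and the other KO libraries were the highest. Its log2 fold change was 0.79 ± 0.42 (SE, edgeR adjusted p = 0.276) over 6 libraries, 1.05 ± 0.24 (adjusted p = 0.0232) over the 4 libraries, and the log2 ratio was -0.19 in the Xist-positive pair.

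The subunits of the first enzyme of glutathione synthesis were not higher in KO. Gclc (chromosome 9, 77754535 to 77794485, plus strand) and Gclm (chromosome 3, 122245557 to 122270732, plus strand) encode the catalytic and the modifier subunit of glutamate-cysteine ligase, the rate-limiting enzyme of glutathione synthesis. Gclc had 339, 470 and 218 CPM in KO and 342, 471 and 469 CPM in WT, with the lowest value in KO 3. Gclm had 153, 227 and 210 CPM in KO and 219, 255 and 237 CPM in WT. The groups overlapped for both genes. The log2 fold changes were -0.32 ± 0.30 for Gclc (SE, adjusted p = 0.532 in edgeR) and -0.27 ± 0.19 for Gclm (adjusted p = 0.397), and in the 4 Y-positive libraries -0.46 ± 0.36 and -0.18 ± 0.14 (adjusted p = 0.367 and 0.357). Gclm was the only gene of the 10 whose deposited counts were not whole numbers, in all 6 libraries.

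G6pdx (chromosome X, 74409483 to 74429194, minus strand) encodes glucose-6-phosphate dehydrogenase, which makes NADPH in the pentose phosphate pathway. It was the least abundant of the 10, at 3.74, 7.11 and 3.74 CPM in KO and 4.32, 2.97 and 3.74 CPM in WT. Only KO 2 stood apart. Its log2 fold change was 0.40 ± 0.31 (SE, edgeR adjusted p = 0.442), or 0.03 ± 0.23 without KO 2 (adjusted p = 0.958). G6pdx shares 418 of its 3080 exonic bases with Ikbkg on the other strand, which had 27.4 times as many counts, and the use of strand in the counting is not given in the sources used here, so the G6pdx level is uncertain.

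Per length, Gclc was the most abundant of the 10 in WT, at 113 CPM per kilobase of annotated exon (90.8 to 125 over 3 libraries), followed by Gclm at 37.7, Gsr at 24.7, Txnrd1 at 20.4, Nfe2l2 at 15.6, Srxn1 at 15.3, Keap1 at 10.3, Hmox1 at 6.18, Nqo1 at 4.33 and G6pdx at 1.19. Gsr and Txnrd1, Nfe2l2 and Srxn1, and Hmox1 and Nqo1 overlapped in their WT ranges, and the other neighbours in this order did not. In KO, Srxn1 had the highest mean on this scale, at 133 CPM per kilobase, but its libraries ran from 16.8 to 321, across the range of Gclc (57.9 to 125).

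**Figure D3:**
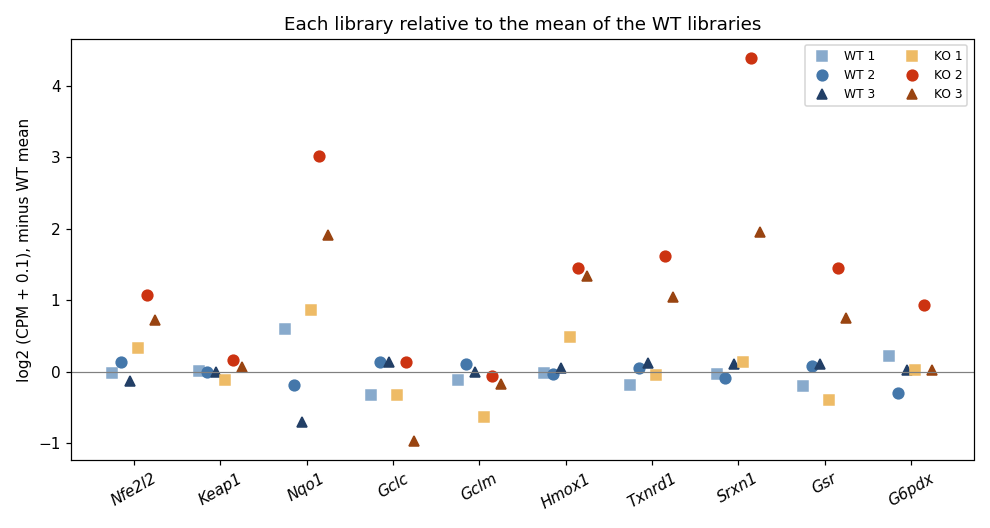
Level of each gene in each library as log2 (CPM + 0.1) minus the log2 of the WT mean, with WT in shades of blue, KO 1 in yellow, KO 2 in red and KO 3 in brown. Srxn1 reaches 4.38 in KO 2 and 1.95 in KO 3 but 0.13 in KO 1, and Keap1 stays between -0.11 and 0.16 in all 6 libraries.

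The KO libraries were ordered alike across the genes. KO 2 was above KO 3, and KO 3 above KO 1, for 8 of the 10 genes, which 25.2% of all tested genes also showed, and KO 2 was the highest of the 6 libraries for 8 of the 10, against 25.1% of all genes. Gclc and G6pdx were the exceptions to the first order, and Gclc and Gclm to the second. KO 1 also had the highest Stk11 level of the 3 KO libraries (22.1 CPM), whose part in the lower levels of KO 1 was not tested.

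Whether the KO-WT difference itself was unlike in the Xist-positive pair and the Y-positive libraries was tested as an interaction over all genes, which left 2 residual degrees of freedom per gene. The interaction passed an adjusted p-value of 0.05 in edgeR for 0 of the 10 genes, against 2.90% of all genes. At an unadjusted p-value under 0.05 it did for 5 (Nqo1, Hmox1, Txnrd1, Srxn1 and Gsr), against 20.9%. In all 5 the difference was smaller in the Xist-positive pair, by -2.73 ± 0.67 on the log2 scale for Nqo1 (SE, adjusted p = 0.111) and -0.89 ± 0.19 for Hmox1 (adjusted p = 0.0813). Without the filter on low counts the same 5 genes passed the adjusted threshold, against 6.78% of 23717 genes, so that this call depended on the filter. In this design the Xist state cannot be told apart from anything else that set KO 1 and WT 1 apart from the other libraries.

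The profile of Nqo1 over the 6 libraries was compared with that of 11963 other genes with a mean of at least 1 CPM, as the root mean square difference of centred log2 CPM values. The closest 5 were Slc41a3 (0.27), Cbr1 (0.28), Clcf1 (0.28), Ly6e (0.30) and Igtp (0.31). Cbr1, a carbonyl reductase that is itself listed as an Nrf2-linked gene, had 74.2, 321 and 229 CPM in KO and 72.6, 46.1 and 40.7 CPM in WT. Ly6e and Igtp, both known as interferon-induced genes, had 310, 1301 and 691 CPM and 66.9, 291 and 201 CPM in KO and at most 232 and 76.9 CPM in WT. None of the 5 passed the threshold over 6 libraries, with edgeR adjusted p-values from 0.0675 for Slc41a3 to 0.098 for Igtp. Of the other 9 genes Hmox1 was nearest to Nqo1 by this measure, at 0.72, followed by Srxn1 at 0.74 and Txnrd1 at 0.77.

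Other genes of the same chemistry were taken from lists drawn up with earlier results of these data known, so their shares are no test of enrichment. Over 6 libraries 5 of 115 tested genes were called higher and 3 lower (4.35% and 2.61%, beside 2.15% and 1.22% of all genes). In the 4 Y-positive libraries 34 of 117 were called higher and 25 lower (29.1% and 21.4%, beside 17.2% and 16.1% of all genes). These shares of all genes hold for the single lists as well, and no list was tested as a set. Of 14 partners and regulators of Nrf2, such as the small Maf proteins and the Keap1-linked ubiquitin ligase, 0 were called over 6 libraries. An unadjusted edgeR p-value under 0.05 was found for 3 of them, beside 26.3% of all genes, and 1 rose and 2 fell in the 4 Y-positive libraries. Closest were Gsk3b, a kinase that marks Nrf2 for degradation (37.2, 55.0 and 59.4 CPM in KO, 31.7 to 35.1 CPM in WT, edgeR adjusted p = 0.119), and the repressor Bach2 (9.90, 3.17 and 3.48 CPM in KO, 12.1 to 13.6 CPM in WT, adjusted p = 0.138). Sqstm1, which can sequester Keap1 and was named after its values were seen, was at 333, 729 and 445 CPM in KO and 365 to 396 CPM in WT (adjusted p = 0.422).

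Of 12 genes for glutathione synthesis and breakdown 10 were tested, 2 rose and 1 fell over 6 libraries (beside 2.15% and 1.22% of all genes). Cth and Cbs, the enzymes that make cysteine from homocysteine, rose by 2.84 ± 0.36 and 1.16 ± 0.20 on the log2 scale (SE, edgeR adjusted p = 0.018 and 0.0372). Cth was at 1753 to 3832 CPM in KO against 299 to 409 CPM in WT, and Cbs at 1105 to 1447 CPM against 516 to 654 CPM. KO 1 shared these higher levels, with log2 ratios of 2.55 for Cth and 0.95 for Cbs in the Xist-positive pair. The 8 antioxidant targets had ratios of at most 0.50 there, and the median of the 10 tested genes of this list was -0.06. Cth and Cbs were named because they were called over 6 libraries, which favours genes that are also high in KO 1. Their contrast with the targets is therefore no evidence, and it was not tested. In the 4 Y-positive libraries 5 of 11 genes of this list rose and 2 fell (beside 17.2% and 16.1% of all genes). Gss, glutathione synthetase, which was named after its values were seen, had 74.2, 156 and 108 CPM in KO and 60.1 to 76.0 CPM in WT, and rose in those 4 libraries (log2 fold change 1.1 ± 0.19, adjusted p = 0.0109) but was not called over 6 (adjusted p = 0.138). Cndp2, a dipeptidase that acts on a glutathione breakdown product, fell by 0.64 ± 0.13 (adjusted p = 0.0488).

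Of 22 glutathione S-transferases 21 were tested, and 2 rose and 0 fell over 6 libraries (beside 2.15% and 1.22% of all genes). In the 4 Y-positive libraries 9 rose and 3 fell (beside 17.2% and 16.1% of all genes). Gstk1, the mitochondrial and peroxisomal form, had 309, 217 and 262 CPM in KO and 77.5 to 82.9 CPM in WT (log2 fold change 1.71 ± 0.17, SE, adjusted p = 0.00995 in edgeR). Gstm2 was at 135, 366 and 167 CPM in KO and 52.8 to 58.1 CPM in WT (2.03 ± 0.38, adjusted p = 0.0431). Gsta1, Gsta2 and Gstm3, chosen after their values were seen, had the same order of KO libraries as Srxn1. Gstm3 was at 104, 2278 and 687 CPM in KO and 82.0 to 101 CPM in WT, and Gsta1 at 8.46, 216 and 49.7 CPM against 1.64 to 4.96 CPM. The adjusted p-values of these 3 were 0.0896 for Gstm3, 0.0726 for Gsta1 and 0.0732 for Gsta2. Members of this family resemble each other closely, so their counts depend on how shared reads were divided.

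In the thioredoxin and peroxiredoxin list 1 of 15 genes rose and 0 fell over 6 libraries. In the 4 Y-positive libraries 3 rose and 3 fell, beside 17.2% and 16.1% of all genes. The gene called over 6 libraries was Txn2, mitochondrial thioredoxin, at 202, 296 and 347 CPM in KO and 128 to 136 CPM in WT (log2 fold change 1.11 ± 0.22, SE, edgeR adjusted p = 0.0478). Of 10 glutathione peroxidases and glutaredoxins 9 were tested and 0 were called over 6 libraries, with 5 at an unadjusted p-value under 0.05 (beside 26.3% of all genes). All 10 were tested in the 4 Y-positive libraries, where 4 rose and 2 fell. Glrx had 46.3, 72.5 and 75.1 CPM in KO and 31.4 to 34.6 CPM in WT (adjusted p = 0.0516), and Gpx4, which reduces lipid peroxides, 173, 294 and 245 CPM against 130 to 148 CPM (adjusted p = 0.0912). Of 4 genes for superoxide and peroxide removal 0 were called, with 2 at an unadjusted p-value under 0.05, and 1 rose and 1 fell in the 4 Y-positive libraries. Catalase (Cat) was at 2426, 1161 and 1613 CPM in KO and 2786 to 3866 CPM in WT (adjusted p = 0.118), and Sod2, the mitochondrial superoxide dismutase, at 183, 256 and 282 CPM in KO and 151 to 175 CPM in WT (adjusted p = 0.148).

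Among 12 genes of NADPH supply 0 were called by edgeR over 6 libraries, and 5 had an unadjusted p-value under 0.05, beside 26.3% of all genes. In the 4 Y-positive libraries 3 rose and 4 fell, beside 17.2% and 16.1% of all genes. Idh2, a mitochondrial source of NADPH, had 169, 222 and 266 CPM in KO and 80.2 to 126 CPM in WT (adjusted p = 0.0552), whereas Taldo1 of the pentose phosphate pathway had 60.6 to 71.8 CPM in KO and 79.9 to 94.9 CPM in WT (adjusted p = 0.103). For heme and iron handling 9 genes were tested, 0 were called and 4 had an unadjusted p-value under 0.05, and in the 4 Y-positive libraries 3 rose and 0 fell. The ferritin genes Fth1 and Ftl1, which store iron, had 1247 to 2295 CPM and 3572 to 6516 CPM in KO and 915 to 1037 CPM and 2507 to 2835 CPM in WT (adjusted p = 0.0954 and 0.0973).

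The list of other detoxification genes linked to Nrf2 had calls in both directions. Of 22 genes 21 were tested, and 0 rose and 2 fell over 6 libraries (beside 2.15% and 1.22% of all genes). In the 4 Y-positive libraries 5 rose and 8 fell (beside 17.2% and 16.1% of all genes). The glucuronosyltransferase Ugt1a6b fell from 117, 171 and 169 CPM in WT to 66.1, 46.9 and 52.8 CPM in KO (log2 fold change -1.46 ± 0.21, SE, edgeR adjusted p = 0.0255), with the limit that the Ugt1a genes share exons. Abcc3, a transporter of conjugates, fell from 307 to 343 CPM in WT to 178, 146 and 107 CPM in KO (-1.16 ± 0.21, adjusted p = 0.0431). The median log2 fold changes over 6 libraries were 0.57 for the glutathione S-transferases, -0.20 for this list, and between -0.16 and 0.20 for the other 7 lists.

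**Figure D4:**
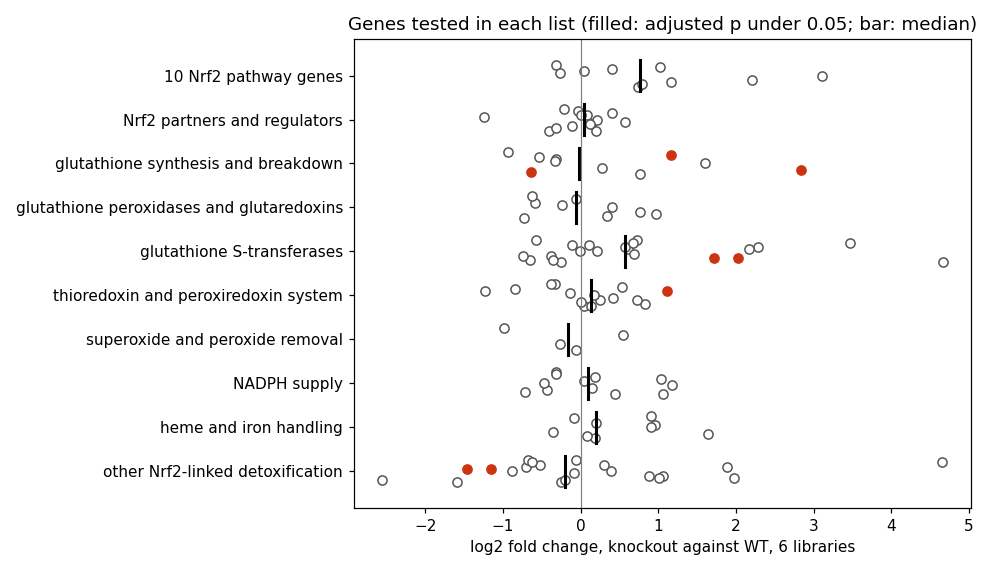
Fitted log2 fold change of KO against WT over 6 libraries for every tested gene of the 10 lists (points, filled where the adjusted p-value is under 0.05) with the median of each list (bar). The 10 Nrf2 pathway genes have a median of 0.76 with no filled point, and the glutathione S-transferases reach 4.66 with Gsta1.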

How the data were processed

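For 6 mRNA libraries the authors deposited RSEM expected counts per gene in 1 table. Per the submitters' processing notes, bcl2fastq 2.17, cutadapt 1.18, STAR 2.7.0f and RSEM 1.3.1 were used and the build was mm9. All 55450 gene identifiers with their versions were found in GENCODE M21 (GRCm38), which is at odds with mm9. The table holds no coordinates, and all positions are GRCm38. Strand use in counting is not given in the sources used here.

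Columns were matched to samples by description and groups taken from titles; 0 columns were left over. Counts were rounded (5.16% of values were not whole), filtered with filterByExpr and scaled by TMM. Groups were compared with edgeR 4.0.16 (quasi-likelihood, R 4.3.3) with no covariate, adjusted by Benjamini-Hochberg over 14539 genes. SE is the log2 fold change over the square root of F. The fit was also run on simulated counts. These were drawn independently for each gene and library, with no shift like that of KO 1, so they cannot show how the fit handles it. Log2 ratios within subsets use CPM + 0.1, and profiles a prior count of 2. Alternatives were RLE, library size, no filter, DESeq2 1.42.0, limma 3.58.1 (voom), a replicate block, the Xist state, and libraries left out. A library was taken as Xist-positive where its Xist count exceeded the sum of Ddx3y, Eif2s3y, Kdm5d and Uty.

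The 10 genes and the lists were chosen with earlier results of these data known. Named were the 10 genes, Stk11, per list the 3 called genes with the smallest p or, with none called, the 2 with the smallest p, and the 5 nearest profiles to Nqo1. Of the list entries, Hrg1 is an older name of Slc48a1, which is also listed.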

Additional observations from a re-analysis of the deposited data

Results flagged for a closer look

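For 4 named genes, none among the 10, the KO-WT difference itself differed between the Xist-positive pair (KO 1 and WT 1) and the Y-positive libraries, by the interaction test in edgeR over all genes. Of all genes, 2.90% passed this test. The log2 difference between the 2 contrasts was -2.63 for Cbr1 (adjusted p = 0.0234), -2.74 for Gsta2 (adjusted p = 0.0199) and -2.99 for Igtp (adjusted p = 0.02), so their KO-WT differences were smaller in the Xist-positive pair. For the repressor Bach2 it was 1.48 (adjusted p = 0.0398), from a log2 ratio of -1.91 in the 4 libraries to -0.46 in the pair. Genes of the lists that were not named passed as well, such as Alas1 (-3.20) and Gstt3 (-3.84). Cyp2a5 also passed, but its KO-WT difference was larger in the pair, with a log2 ratio of -0.04 in the 4 libraries and -2.41 in the pair. The pair is 1 library against 1. Gsta2 was chosen after its values were seen, and Cbr1 and Igtp were named for profiles near that of Nqo1, in which KO 1 lies near WT 1, so for these 3 the test is no independent evidence.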

How the results depend on the processing

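Of the 10 genes, 0 were called over 6 libraries, with RLE scaling, scaling by library size alone, limma voom and a replicate block as well. The number was 1 (Hmox1) without the filter on low counts and 1 (Hmox1) with the Xist state as a term, 5 with DESeq2, and 6 in the 4 Y-positive libraries. Leaving out 1 library at a time gave 0 to 6, with 6 only without KO 1. Over all genes 490 were called, against 771 without the filter, 2290 with DESeq2, 1504 with the Xist state as a term, 4847 in the 4 libraries, and 6 (without WT 2) to 4473 (without KO 1) with a library left out. The replicate block called 105 genes. Same-numbered animals are not paired by the labels, and their deviations correlated at 0.18, 0.044 and 0.068, with KO 2 and KO 3 each closest to another number. The fitted log2 fold change of Keap1 ran from -0.0145 to 0.11 with a library left out, and no other of the 10 genes changed sign under any alternative run. The interaction with the Xist state was called for 0 of the 10 genes, also with RLE scaling, and for 5 without the filter; these alternatives were chosen after seeing the data. Depth was not uniform over the genes: G6pdx had 154 to 395 counts per library, and the other 9 had at least 192.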

Other observations

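3 further genes from the lists were highest in KO 2 and were picked after their values were seen, of which Slc7a11 and Gpx2 were too low to be tested over 6 libraries but rose in the 4 Y-positive libraries (edgeR adjusted p = 0.0468 and 0.039). Slc7a11, the cystine importer, had 2.54 CPM in KO 2, at most 0.233 CPM in the other KO libraries and at most 0.0591 CPM in WT, and Gpx2, a glutathione peroxidase of epithelia, had 1.80 CPM in KO 2 and at most 0.212 CPM elsewhere. The carbonyl reductase Cbr3 had 0.65, 24.7 and 2.10 CPM in KO 1, 2 and 3 and 0.26 to 0.43 CPM in WT (edgeR adjusted p = 0.097). The floor of 3 counts corresponds to 0.0515 to 0.0641 CPM per library.

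The summed level of the 10 genes was 883, 2503 and 1213 CPM in KO 1, 2 and 3 and 922, 1120 and 1106 CPM in WT 1, 2 and 3, so that KO 1 was the lowest and KO 2 the highest of the 6 libraries.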
